A study of Mus musculus with 8 samples.

Results

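Hepcidin and 9 further genes of iron handling were followed in the H3K27ac lists of thapsigargin-treated mouse primary hepatocytes (MPH). The 10 genes were chosen by name: Hamp, Hamp2, Tmprss6, Hfe, Tfr2, Bmp6, Tfrc, Slc40a1, Fth1 and Ftl1. They are 10 of the 55341 gene symbols of GENCODE M21, and 8 of them are among the 12261 genes with a transcription start site (TSS) in an H3K27ac region. For each gene the class and width of the regions at its TSSs, in its gene body and within 50 kb of its TSSs were read from the lists.

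The MPH came from adult male C57Bl6 WT mice (C57BL/6J in the study's methods), were kept in serum-free William's medium, and received either 1 µM thapsigargin or the vehicle, 0.04% DMSO, over 4 h. Thapsigargin blocks the calcium pump of the endoplasmic reticulum (ER) and thereby induces ER stress. Each treatment gave 3 H3K27ac libraries, from 3 independent preparations of MPH, and 1 input library, 8 libraries in all. The authors' lists hold 5508 regions with more H3K27ac after thapsigargin (UP), 3376 with less (DOWN) and 23312 that were not called (unchanged), 32196 in all, as positions on mm10 with neither read counts nor signal, fold changes or p-values.

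H3K27ac is a histone mark of active promoters and enhancers. No value of a single library, error between preparations or sequencing depth can be given from these lists, and UP and DOWN are the authors' calls at an FDR of 0.05, with the bins of a region counted by direction. Unchanged regions are those with an FDR above 0.05, which does not show equal signal in both treatments. A significant region whose ratio of UP to DOWN bins lay between 0.5 and 2 met none of the study's definitions. A place in no listed region is therefore not shown to lack H3K27ac. The authors' published code names thapsigargin as the reference level of the contrast, so the direction here rests on the names of the lists and on the study's text, which uses UP for more H3K27ac under ER stress. The TSS of Ddit3, which encodes the ER stress factor CHOP, lay in an UP region.

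Hepcidin, the peptide encoded by Hamp, is secreted by hepatocytes and lowers plasma iron by binding the iron exporter ferroportin (Slc40a1), which is then degraded. Its transcription is driven by BMP ligands such as BMP6 through receptors and SMAD factors, with HFE and transferrin receptor 2 as sensors of transferrin-bound iron, while the protease matriptase-2 (Tmprss6) dampens this pathway. Inflammatory cytokines act on the same promoter through STAT3. Inside the cell, iron is taken up through transferrin receptor 1 (Tfrc) and stored in ferritin, a shell of heavy (Fth1) and light (Ftl1) chains.

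Of the 10 genes, Fth1 had all its TSSs in an UP region and Tmprss6 had some of its TSSs in a DOWN region. Hamp and Ftl1 had all their TSSs in unchanged regions. Hfe, Tfr2, Tfrc and Slc40a1 had some there and the rest in no region, as had Tmprss6 for its other TSSs. The TSSs of Hamp2 and Bmp6 lay in no region. Changes away from the TSS were listed inside Bmp6, which held 2 UP regions, inside Slc40a1, which held 1 DOWN region, and inside Tmprss6, with a DOWN region of 4693 bp. Outside the gene bodies, changed regions lay within 50 kb of Hamp, Hamp2, Tmprss6, Hfe, Slc40a1, Fth1 and Ftl1. Those of Hamp were 3 DOWN regions upstream, from 26936 to 43471 bp away. Nearer ones lay at Ftl1, with a DOWN region at 5887 bp, and at Hfe, with a DOWN region at 17636 bp.

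The bases before the starts of Hamp and its paralogue Hamp2 are shown because one gene lay in a region and the other in none. Those before Tfrc are shown because they hold the same letters of the BMP response element, and those before Hfe because they hold a match to the antioxidant response element. Each stretch is the 250 bases that precede a RefSeq start in GRCm38.p6, the assembly of mm10, written 5′ to 3′ on the strand of the gene, and capitals mark the matches to the motifs searched.
Hamp, chr7:30944030-30944279, minus strand: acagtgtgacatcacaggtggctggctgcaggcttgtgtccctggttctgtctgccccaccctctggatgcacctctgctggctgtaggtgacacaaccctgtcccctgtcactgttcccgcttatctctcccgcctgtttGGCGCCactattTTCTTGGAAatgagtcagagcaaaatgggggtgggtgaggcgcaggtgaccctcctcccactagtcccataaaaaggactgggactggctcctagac
Hamp2, chr7:30924182-30924431, minus strand: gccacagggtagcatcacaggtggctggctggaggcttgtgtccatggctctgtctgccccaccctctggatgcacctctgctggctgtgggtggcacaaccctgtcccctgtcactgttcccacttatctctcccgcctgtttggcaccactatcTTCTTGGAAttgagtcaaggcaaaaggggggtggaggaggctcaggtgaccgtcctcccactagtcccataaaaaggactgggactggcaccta
Tfrc, chr16:32608646-32608895, plus strand: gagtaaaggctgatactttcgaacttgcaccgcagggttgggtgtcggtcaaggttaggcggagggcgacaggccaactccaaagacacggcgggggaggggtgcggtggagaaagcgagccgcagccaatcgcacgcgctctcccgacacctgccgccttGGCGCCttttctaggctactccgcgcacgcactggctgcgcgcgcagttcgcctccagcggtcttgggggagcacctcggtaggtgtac
Hfe, chr13:23710855-23711104, minus strand: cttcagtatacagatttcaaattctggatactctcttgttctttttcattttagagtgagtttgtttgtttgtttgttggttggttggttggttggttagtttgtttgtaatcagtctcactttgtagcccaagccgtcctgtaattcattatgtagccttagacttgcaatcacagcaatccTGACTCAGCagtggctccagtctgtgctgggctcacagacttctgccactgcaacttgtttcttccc

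The stretches of Hamp, Tfrc and Hfe lay in unchanged H3K27ac regions, and that of Hamp2 overlapped none. Hamp and Hamp2 were identical at 227 of 247 aligned bases (91.9%), without a gap inside the alignment. Hamp held the letters GGCGCC, the core of the BMP response element, from 109 bases before its start. Counting from 1 at the 5′ end of the Hamp stretch, the substitution G145A left no match at the aligned place of Hamp2. Both held TTCTTGGAA, a match to the STAT motif, 97 bases before the start of Hamp and 94 before that of Hamp2.

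The motifs were searched on both strands of the bases before the start in 32851 RefSeq promoters, which include 12 promoters of 8 of the 10 genes. Slc40a1 and Tmprss6 had no entry. GGCGCC was found in 9.59% of all promoters and the STAT motif TTCNNNGAA in 7.02%. Among the other genes, Tfrc held GGCGCC 89 bases before its start. The antioxidant response element TGACNNNGC, found in 10.2% of all promoters, matched TGACTCAGC at Hfe and TGACCGTGC at Bmp6, and Bmp6 also held the E-box CACGTG (6.02% of all promoters). A promoter of Fth1 held the C/EBP motif TTGCNNAA at 2 places, and 9.56% of all promoters held it. No promoter of these genes matched TGATGNAA (ATF4 and CHOP, 3.45% of all), TGACGTGG (UPRE, 0.563%) or TGACGTCA (CRE, 1.55%), of which the last pair share the letters TGACGT and so overlap in what they find. None of the matches listed overlapped another. These matches describe letters in a window and no binding.

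Hamp is a gene of 1665 bp on the minus strand (chromosome 7, 30942368 to 30944032), and its TSS lay in an unchanged region of 2391 bp from 30943806 to 30946196. This region covered the first exon and part of the first intron, 13.6% of the gene, and reached 2164 bp upstream, into the end of Usf2. It ended 226 bp past the TSS, so Hamp had no region where 500 bp on both sides had to be covered. Of the 23312 unchanged regions 82.6% were narrower. Further upstream lay 3 more unchanged regions, of 3406, 6578 and 5038 bp. The widest holds the TSSs of Usf2, a factor that binds E-boxes of the hepcidin promoter, and the farthest lies in Lsr, a receptor for lipoproteins.

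The 3 DOWN regions near Hamp all lay beyond Usf2. The nearest measured 5117 bp, from 30970968 to 30976084, at 26936 bp from the Hamp TSS, and held TSSs of Lsr and Fam187b. The others measured 947 bp and 2194 bp and lay inside Fam187b, at 40943 and 43471 bp. The nearest UP region was 293386 bp from Hamp, and of the 12261 genes at a region 87.3% had an UP region at that distance or nearer. For the nearest DOWN region this share was 23.7%.

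Hamp2, a second hepcidin gene of the mouse (chromosome 7, 30922372 to 30924681, minus strand), had 3 transcripts and no region at any TSS or in its gene body. Its nearest region was the unchanged one at the Hamp TSS, 19125 bp away. All 5 regions within 50 kb of Hamp2, 4 unchanged and 1 DOWN, were also within 50 kb of Hamp, so the pair do not give separate counts.

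How well 50-base reads can be placed was measured at both genes, since they share sequence. In the region at the Hamp TSS, 456 of the 2342 stretches of 50 bases occurred at another place of the 21 chromosomes, which left 80.5% at 1 place. Within 1000 bp on each side of the start of Hamp2 the share at 1 place was 78.5%. At the TSS regions of Hfe, Tfr2, Tfrc and Slc40a1 each stretch of 50 bases occurred at 1 place alone. The part of read placement in the absence of a region at Hamp2 was not tested.

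**Figure D1:**
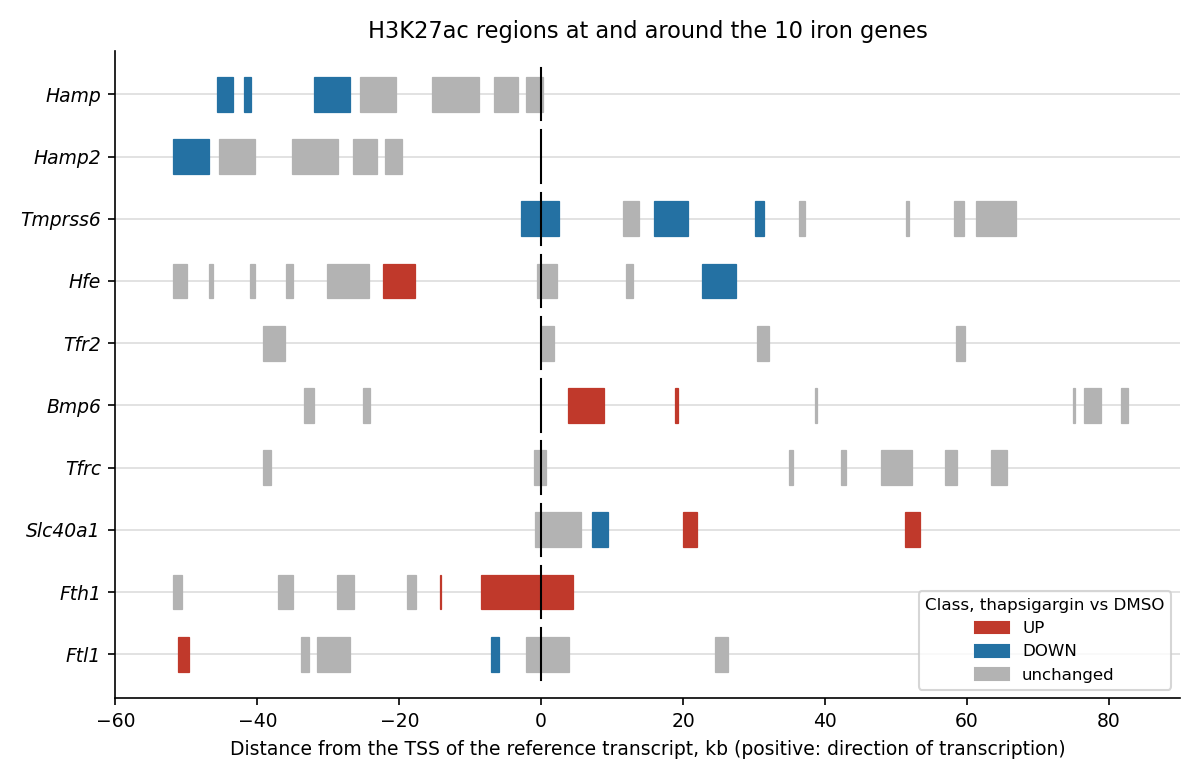
Maps of the H3K27ac regions at the 10 iron genes, one row a gene, with distance in kb from the TSS of its lowest-numbered GENCODE transcript (black line) on the horizontal axis and the direction of transcription to the right. Bars are regions drawn to scale, with a thin outline that keeps narrow ones visible, in red for UP, blue for DOWN and grey for unchanged. Fth1 has an UP bar over its TSS and Tmprss6 a DOWN bar, while the 3 DOWN bars of Hamp lie upstream of 4 grey ones.

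Of the 4 genes followed here that act on hepcidin transcription, Tmprss6 was the one with a DOWN region at its TSSs. Tmprss6 (chromosome 15, 78439667 to 78468634, minus strand) encodes a liver serine protease that cleaves hemojuvelin. Of its 7 transcripts 3 started in a DOWN region (78466165 to 78471480, 5316 bp), which covered the first exon and part of the first intron and was wider than 85.0% of the 3376 DOWN regions. A DOWN region of 4693 bp (78447996 to 78452688) spanned exon 10 of its 18 exons and the introns on both sides. Between them lay an unchanged region of 2241 bp around exon 7. A narrower DOWN region, of 1291 bp, lay beyond the end of the gene in Kctd17, at 3882 bp from the nearest TSS of Tmprss6. The 4 regions farther on were unchanged, from 405 to 5566 bp wide, and the nearest UP region was 72354 bp away.

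Bmp6 (chromosome 13, 38345107 to 38500302, plus strand) encodes a BMP ligand that raises hepcidin and that endothelial cells of the liver are known to secrete. None of its 3 TSSs lay in a region. Its first intron held 6 regions, of which the 2 nearest to the start of the gene were UP. The wider UP region measured 5103 bp (38348859 to 38353961) and began 2706 bp from the nearest TSS. Of the 5508 UP regions 91.8% were narrower. The second measured 329 bp, at 17854 bp from the nearest TSS. By that measure an unchanged region of 287 bp lay nearer to a TSS, at 10408 bp. The 4 unchanged regions of the intron measured 262 to 2404 bp, and 2 more unchanged regions lay upstream, at 24144 and 32045 bp. The nearest DOWN region was 254410 bp away.

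Hfe (chromosome 13, 23702034 to 23710854, minus strand), which encodes an MHC-like partner of the transferrin receptors, had 3 of its 4 transcripts start in an unchanged region of 2865 bp that covered 26.7% of the gene. The gene lies among histone genes, and 9 regions lay within 50 kb, the most of the 10 genes. A DOWN region of 4825 bp with TSSs of Hist1h2ac and Hist1h2bc, which encode core histones, was 17636 bp away. On the other side, at 17687 bp, lay an UP region of 4519 bp with the TSS of Gm11338, which is not a protein-coding gene. The other 7 were unchanged.

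Tfr2 (chromosome 5, 137569840 to 137587481, plus strand), the hepatocyte sensor of transferrin-bound iron, had no changed region within 50 kb. Of its 11 transcripts 7 started in an unchanged region of 1791 bp that overlapped exons 1 to 5 of 20. The 3 other regions measured 1234 to 3059 bp and were unchanged too. The nearest DOWN region was 94749 bp away and the nearest UP region 128660 bp.

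Of the genes of uptake, export and storage, Fth1 carried the widest region. Fth1 (chromosome 19, 9980598 to 9985098, plus strand) encodes the ferritin chain that oxidizes iron for storage. All 9 of its transcripts started in an UP region of 12998 bp, from 9974138 to 9987135, that covered the whole gene and 8508 bp before the start of its lowest-numbered transcript, and also reached into Best1, which encodes a chloride channel. It ranked 46 by width among the 5508 UP regions. A second, narrow UP region lay upstream of it. The 4 regions farther upstream were unchanged and measured 1221 to 2469 bp.

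Ftl1 (chromosome 7, 45457944 to 45459884, minus strand), the gene of the light ferritin chain, lay in full inside an unchanged region of 6078 bp that held the TSSs of all its 6 transcripts. Of the unchanged regions 98.0% were narrower. The ferritin genes thus fell in different classes, and the difference between them was not tested. A DOWN region of 1184 bp with the TSS of Bax, a factor of apoptosis, lay 5887 bp upstream of Ftl1, and it also overlapped Gm45808. At 49655 bp lay an UP region of 1532 bp with a TSS of Nucb1, which encodes a calcium-binding protein of the Golgi, and overlap with Tulp2.

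Slc40a1 (chromosome 1, 45908068 to 45926523, minus strand), the exporter that hepcidin acts on, had 4 of its 8 transcripts start in an unchanged region of 6450 bp. This region overlapped exons 1 to 3 of 8 and covered 34.9% of the gene, and 98.3% of the unchanged regions were narrower. Next to it, further along the gene, a DOWN region of 2241 bp (45916195 to 45918435) overlapped exon 5 and intron 5, at 4874 bp from the nearest TSS. Beyond the end of the gene lay 2 UP regions, of 2011 bp at 17665 bp, with the TSS of the noncoding Gm18303, and of 2169 bp at 49000 bp. Of the 4 regions near Slc40a1, 3 were thus changed, in both directions, while the region at its TSSs was not called. Over all lists 17.1% of regions were UP and 10.5% DOWN.

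Tfrc (chromosome 16, 32608920 to 32632794, plus strand), the receptor for transferrin uptake in most cells, had 3 of its 7 transcripts start in an unchanged region of 1754 bp. The other 6 regions within 50 kb, 5 of them in Tnk2, were unchanged, from 575 to 4292 bp wide. The nearest DOWN region was 63490 bp away and the nearest UP region 146151 bp.

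The second UP region of Bmp6 was the narrowest UP region in the bodies of the 10 genes and can be printed nearly in full. Its central 300 bases are written on the plus strand of GRCm38.p6, and they held no match to any of the motifs searched. Among 2186 regions of similar width, the share with a match ran by motif from 0.229% (CRE) to 14.0% (antioxidant response element). Those regions were of any class and were searched over their full width, so they are not matched in length to the 300 bases.
Bmp6 intronic UP region, chr13:38364021-38364320: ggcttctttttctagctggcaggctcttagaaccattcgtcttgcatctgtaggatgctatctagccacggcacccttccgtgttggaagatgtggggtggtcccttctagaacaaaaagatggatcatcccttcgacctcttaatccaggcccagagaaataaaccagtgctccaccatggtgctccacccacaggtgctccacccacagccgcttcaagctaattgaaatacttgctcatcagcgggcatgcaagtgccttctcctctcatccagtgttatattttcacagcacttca

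The classes of the 10 genes were set beside those of all genes. Of the 12261 genes whose TSSs met a region, 21.4% met an UP region and 8.91% a DOWN region, against 1 of 8 in each class here. Gene bodies with a region were counted for 15263 genes, of which 28.1% held an UP and 14.9% a DOWN region. Of the 9 iron genes with a region in the body, 2 held an UP region (Bmp6 and Fth1) and 2 a DOWN region (Tmprss6 and Slc40a1). The 17 regions in gene bodies were 3 UP, 3 DOWN and 11 unchanged.

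Within 50 kb of the 10 genes lay 59 distinct regions, of which 8 (13.6%) were UP, 9 (15.3%) DOWN and 42 (71.2%) unchanged. Over all lists the shares were 17.1%, 10.5% and 72.4%. An UP region lay near 5 of the 10 genes and a DOWN region near 6, against 42.6% and 26.2% of the 32683 genes with any region within 50 kb. The DOWN count includes Hamp and Hamp2, which share the region. Regions within 50 kb were unchanged alone for 2 of the 10 genes, Tfr2 and Tfrc, and for 41.9% of all such genes. Among protein-coding genes with a region within 50 kb, 46.9% had an UP region there and 27.7% a DOWN region. Apart from Tfr2 and Slc40a1, each of the 10 genes had more than 4 regions within 50 kb. The median was 4 among genes with a TSS in a region. A gene with more regions nearby has more chances to be near a changed one, and the shares were not matched for this number. None of these counts was tested.

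**Figure D2:**
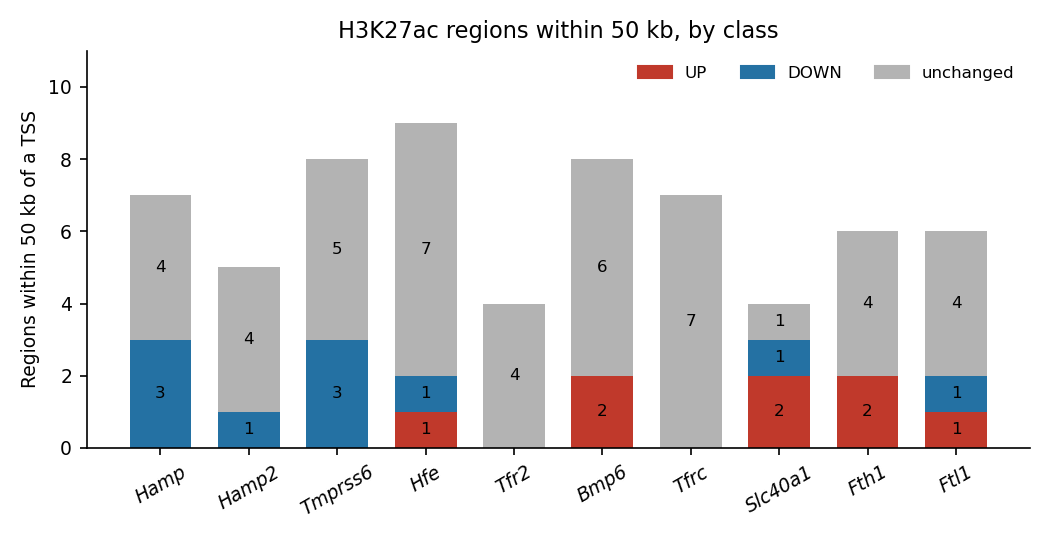
Number of H3K27ac regions within 50 kb of any TSS of each of the 10 iron genes (vertical axis), stacked by class, with the count in each segment. Totals run from 4 regions at Tfr2 and Slc40a1 to 9 at Hfe, and Hamp and Hamp2 share 5 of theirs.

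Most regions at the TSSs of the 10 genes were wider than those of the median gene. The widest region at a TSS measured 1850 bp at the median over the 12261 genes, and 6 of the 8 iron genes with such a region lay above that median, from 2391 bp at Hamp to 12998 bp at Fth1. Tfr2 and Tfrc lay below it. The class of a region varied with its width over the whole lists, and UP regions had a median width of 1621.5 bp, DOWN regions of 2229 bp and unchanged regions of 1155 bp. Of the 122 regions with a TSS that were 0.8 to 1.2 times as wide as that of Fth1, 34.4% were UP, 35.2% DOWN and 30.3% unchanged. Of the 847 of like width to that of Tmprss6, 24.7% were UP and 22.6% DOWN. Unchanged regions made 51.4% of those of like width to the region of Slc40a1 and 51.3% for Ftl1. The part of width in the classes of these genes was not tested.

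**Figure D3:**
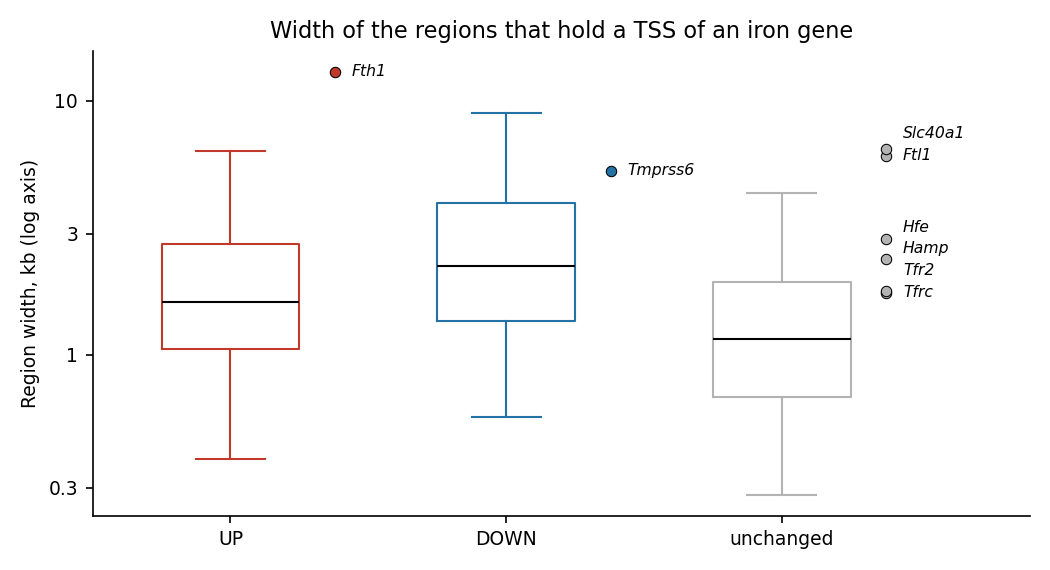
Width in kb, on a log axis, of the regions that hold a TSS of an iron gene (points, labelled) beside the widths of all UP, DOWN and unchanged regions (boxes from the lower to the upper quartile with the median, whiskers from percentile 5 to percentile 95). Fth1, at 12998 bp, lies above the whisker of the UP regions, and Slc40a1 and Ftl1 lie above that of the unchanged ones.

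The wider pathway was described with 49 other iron genes in 6 lists, of which 1, Hjv, was found under its older symbol Hfe2. A TSS lay in a region for 45 of them. Of these 14 (31.1%) met an UP region and 7 (15.6%) a DOWN region, with 1 gene in both counts, against 21.4% and 8.91% of all genes. The other 25 had unchanged regions alone, and 4 had no region. The lists were fixed with earlier results of these data known and include the ER stress gene Ddit3. The differences from the shares of all genes were not tested.

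In the BMP and SMAD list, 12 of 14 genes had a TSS in a region, 3 of them in an UP and 2 in a DOWN region. Smad7, which encodes an inhibitory SMAD that lowers hepcidin, lay in an UP region of 11180 bp, which ranked 74 by width. The UP regions at Smad5, a SMAD activated by BMP receptors, and at Neo1, the receptor neogenin that binds hemojuvelin, measured 2346 and 1685 bp. The DOWN regions were those at Hjv, the BMP co-receptor hemojuvelin, with 3045 bp, and at Bmpr2, a type II BMP receptor, with 2429 bp. Hjv and its protease Tmprss6 thus both had a TSS in a DOWN region.

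Of the 8 genes by which cytokines, stress and hepatocyte factors act on hepcidin, all had a TSS in a region, 4 in an UP and 1 in a DOWN region. Of the genes of interleukin-6 signalling, the receptor Il6ra, the kinase Jak2 and Stat3 lay in UP regions of 4059, 3347 and 2200 bp. The shared receptor chain Il6st lay in an unchanged region of 4409 bp, with the nearest UP region 37581 bp away. The fourth UP region was that of Ddit3, with 6277 bp. Creb3l3, which encodes the ER-bound factor CREBH, lay in a DOWN region of 3903 bp.

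Iron uptake held the widest region of all lists given here. Slc39a14, which encodes the transporter ZIP14 for iron that is not bound to transferrin, had a TSS in an UP region of 33003 bp, which ranked 4 among all UP regions, and another in an unchanged one. Slc11a2 (the transporter DMT1) and Steap2 (a ferrireductase) lay in UP regions of 3700 and 1025 bp. Trf, which encodes the plasma iron carrier transferrin, had a TSS in a DOWN region of 10312 bp, which ranked 115 among DOWN regions, and other TSSs in 2 unchanged ones. Neo1, Stat3 and Slc11a2 also had a TSS in an unchanged region.

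In the list of heme genes and ferroxidases, 7 of 8 genes had a TSS in a region, 2 in an UP and 3 in a DOWN region. Hmox1, the stress-induced enzyme that frees iron from heme, lay in an UP region of 9923 bp. The plasma scavengers of heme and hemoglobin lay in DOWN regions, hemopexin (Hpx) of 10322 bp and haptoglobin (Hp) of 9757 bp, which ranked 114 and 127 by width. Lrp1, the receptor for the heme-hemopexin complex, had TSSs in both classes, in a DOWN region of 11081 bp and an UP region of 936 bp. Of the ferroxidases, ceruloplasmin (Cp) had TSSs in 2 unchanged regions, the wider of 13667 bp, with an UP region 104 bp from a TSS, and Heph had no region.

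Of the 6 genes of iron sensing and ferritin turnover, Aco1, which encodes the iron regulatory protein 1, was the one with a TSS inside a changed region, UP and 3851 bp wide. Ireb2, Fbxl5, Ncoa4, Pcbp1 and Pcbp2 had a TSS in an unchanged region. The nearest changed region was DOWN for Fbxl5, at 937 bp, Ncoa4, at 2501 bp, and Pcbp1, at 27560 bp. It was UP for Ireb2, at 6092 bp, and Pcbp2, at 8145 bp. Of the 12261 genes at a region, 12.0% had a DOWN region within 4874 bp and 23.7% an UP region within 2706 bp. Of the 5 mitochondrial iron genes with a TSS in a region, Slc25a28, the iron importer mitoferrin 2, lay in an UP region of 2291 bp and the other 4 in unchanged ones.

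**Figure D4:**
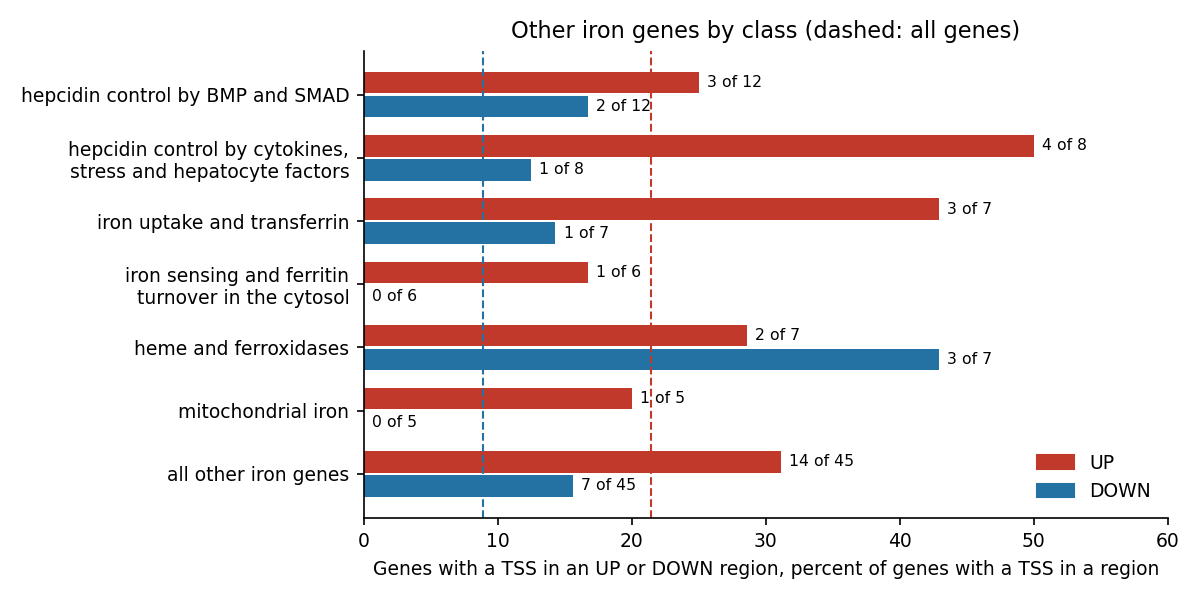
Share of genes with a TSS in an UP (red) or DOWN (blue) region, in percent of the genes of each list with a TSS in any region (horizontal axis), with the counts beside the bars and the shares over all genes as dashed lines (21.4% UP, 8.91% DOWN). Over all other iron genes the bars stand at 31.1% and 15.6%, and the lists hold 5 to 12 genes each. The lists were chosen with earlier results known, and no difference from the dashed lines was tested.

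Markers of liver cell types were read in the same way, since bulk chromatin cannot tell a change per cell from a change in the share of cells. All 8 hepatocyte markers had a TSS in a region, 3 of them (Apoa1, Serpina1a and Fgb) in a DOWN region. Of all genes with a TSS in a region, 21.4% met an UP and 8.91% a DOWN region. A TSS lay in a region for 0 of 7 Kupffer cell markers, 0 of 6 stellate cell markers, 2 of 7 endothelial markers (Stab2 and Oit3, unchanged) and 2 of 5 cholangiocyte markers (Sox9, UP, and Spp1, unchanged). Within 50 kb, 3 of the 7 endothelial markers had an UP region and 3 a DOWN region. For hepatocyte markers these counts were 4 and 4 of 8, for stellate cell markers 2 and 0 of 6. They were 1 and 1 of 5 for cholangiocyte markers and 0 and 0 of 7 for Kupffer cell markers. The share of all genes with any region within 50 kb was 42.6% for UP and 26.2% for DOWN. Stab2 had an UP region 386 bp from a TSS, and Lyve1 an UP region at 2602 bp and a DOWN region at 18211 bp. Pecam1 had a DOWN region at 11606 bp and an UP region at 26056 bp, and Oit3 a DOWN region at 26228 bp. Kdr, Clec4g and Cdh5 had no changed region within 50 kb. The part of other cells in the regions of Bmp6 was not tested.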

How the data were processed

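Mouse primary hepatocytes were profiled by H3K27ac ChIP-seq after thapsigargin or DMSO. The authors aligned single-end reads of 50 bases to mm10 with Bowtie, removed duplicates and blacklisted regions, called broad peaks with MACS2 on the pooled H3K27ac libraries against input, and tested bins of 150 bp (reads extended to 200 bp) with csaw after loess normalization, in a paired model (pairs numbered by mouse in their code). Bins that overlapped a peak by at least 75 bp were combined, and regions with an FDR of at most 0.05 were listed as UP or DOWN where the ratio of UP to DOWN bins was at least 2 or at most 0.5. The deposited values are start and end positions in bp. Depth per library is unknown, so no interval, test or replicate check was possible.

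Regions were matched to all transcripts of GENCODE M21, while the study names an earlier release, and its linking of distal regions to genes was not repeated. No region reached past the ends of the GRCm38.p6 chromosomes. Members and gene lists were chosen with earlier results of these data known. Genes named besides the 10 were the other iron genes with a TSS in a changed region and protein-coding genes that hold a changed region within 50 kb of one of the 10. Others are named only to place a region, a list member or a marker. Promoters were those of RefSeq. Alternatives varied distance, transcripts, overlap and region width. The counting and motif functions were tested on simulated data. Python 3.11.15, numpy 2.4.6, pandas 2.3.3, Biopython 1.88 and matplotlib 3.10.9 were used.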

Additional observations from a re-analysis of the deposited data

How the results depend on the processing

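Each count was recomputed under the alternatives of distance, transcripts, overlap and region width, which gave 72 values, and 61 of them stayed within 1.5 times the reported count. The classes at the TSSs of the 10 genes moved when a TSS within 10 kb of a region was enough, to 2 genes UP (Bmp6 and Fth1), 3 DOWN (Tmprss6, Slc40a1 and Ftl1) and 1 without a region (Hamp2). That setting moved the other iron genes to 22 UP. Where 500 bp to either side of the TSS had to be inside the region, Hamp joined Hamp2 and Bmp6 as a gene without one (3 genes, with 5 in unchanged regions), and 16 other iron genes had unchanged regions alone and 15 had none, and with regions of at least 1 kb 9 had none. Regions near the 10 genes numbered 20 unchanged within 25 kb, and 13 UP, 16 DOWN and 65 unchanged within 100 kb. These alternatives widen or narrow what is counted by construction. Tmprss6 and Fth1 kept their class at the TSS under each of the 6 settings.

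No paired analysis was possible because the lists hold no value per library, and leaving out a replicate was not possible. A stricter threshold of the authors was not run, since the lists give no p-value or signal. Depth is unknown, so no limit is set on the change in a region that was not called, and the UP and DOWN calls are not graded by size.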

Other observations

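Base composition was read for the regions near the 10 genes. The median GC content was 47.0% over all UP, 46.6% over DOWN and 47.9% over unchanged regions. The 3 changed regions near Slc40a1 held the least GC of the changed regions listed here, with 38.6% and 39.8% in the UP and 38.9% in the DOWN regions. The unchanged region at the Slc40a1 TSSs held 40.2%, so low GC at this gene was not limited to changed regions. The DOWN region at the Bax TSS near Ftl1 held 63.3%, and the DOWN region in Kctd17 near Tmprss6 held 62.0%. The ratio of observed to expected CpG was 0.596 in the DOWN region at the histone genes near Hfe, 0.586 in the UP region at Nucb1 and 0.547 in the DOWN region at Bax, against medians of 0.231 over UP and 0.203 over DOWN regions. These values are descriptions of the reference sequence and were not tested.

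The share of stretches of 50 bases that occur at 1 place was also measured in further regions in the bodies of the 10 genes. It was 97.6% in the UP region of Fth1, 97.5% in the DOWN region at the Tmprss6 TSS and 90.4% in the unchanged region of Ftl1. In both UP regions of Bmp6 each such stretch occurred at 1 place alone.

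Of the 10 genes, Slc40a1 and Ftl1 are on the list of liver identity genes that the study took from broad H3K4me3 domains, and none is on its list of ubiquitous genes.

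Genes for the plasma carriers or scavengers of iron, heme and hemoglobin (Trf, Hpx and Hp) had a TSS in a DOWN region that ranked from 114 to 127 by width among 3376. Trf also had TSSs in 2 unchanged regions. Trf, Hpx and Hp were picked out after their values were seen. The hepatocyte markers Apoa1, Fgb and Serpina1a had DOWN regions that ranked 39, 110 and 454, so such widths were not particular to iron genes.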
